A study of Mus musculus with 23 samples.

Results

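The energy isozyme genes are 5 pairs of mouse genes in which a form used by most tissues stands beside a form made in male germ cells: Gapdh and Gapdhs, Pgk1 and Pgk2, Ldha and Ldhc, Pdha1 and Pdha2, and Cycs and Cyct. The 10 genes were taken by name, and each was read from the probe set that carries its symbol alone and has the highest mean over the wild-type arrays. Of the 18193 genes with such a probe set, 9 were members. Gapdh has 3 probe sets on the array, each assigned to several genes, so it has no value here and the Gapdhs pair could not be compared.

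RNA was measured on 23 Affymetrix arrays of germ cells sorted from adult testis after staining of DNA with Hoechst 33342. The 20 wild-type arrays came from F1 males of a C57BL6 by DBA2J cross, aged 10 to 16 weeks: 4 of spermatogonia, 3 of pre-leptotene cells, 3 of leptotene/zygotene cells, 1 of early, 2 of mid and 1 of late pachytene cells, 2 of diplotene cells and 4 of round spermatids. The 3 Spo11-/- arrays, from males of the same ages lacking the enzyme that cuts DNA to start meiotic recombination, hold spermatogonia, pre-leptotene and leptotene/zygotene cells, 1 array each, with mice pooled and cells combined from 2 collections. The labels give no strain for the Spo11-/- mice and do not say whether the 3 arrays share animals, so genotype, strain and pool cannot be told apart.

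Glycolysis turns glucose into pyruvate, lactate dehydrogenase interconverts pyruvate and lactate, the pyruvate dehydrogenase complex passes pyruvate into the mitochondrion's citric acid cycle, and cytochrome c carries electrons in the respiratory chain. Spermatocytes and spermatids draw on lactate that Sertoli cells supply, while sperm run glycolysis along the tail. Pgk1 and Pdha1 lie on the X chromosome, whose genes are silenced during pachytene in males, and Pgk2 and Pdha2 are autosomal copies that arose by retroposition from them.

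Values are log2(intensity + 1) of each gene's probe set, and 1 unit is a doubling. A gene is said to have risen or fallen where limma gave an adjusted p (Benjamini-Hochberg, across every gene in the fit) below 0.05 and a log2 change of at least 1. Probe sets differ in how strongly they bind, so levels are compared between arrays and never between genes. A value below 4 was treated as the bottom of the scale, and a change into a group wholly below it is a bound. RNA of sorted cells is a bulk measure, in which fewer cells of a type and less RNA per cell cannot be told apart.

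Some arrays stood apart from their labels. The 19 measured round spermatid markers summed to between 15.73 and 17.98 (log2 of summed intensity) in the wild-type spermatogonia arrays and between 17.11 and 17.51 in round spermatids. All 19 were at or above 4 in every spermatogonia array, and Tnp2, a spermatid transition protein, stood there at 13.81 ± 1.19 (SD, n = 4). The same markers summed to 14.78 to 15.62 in wild-type pre-leptotene arrays, with 16 to 19 at or above 4. In wild-type leptotene/zygotene arrays they summed to 15.06 to 15.62, with all 19 at or above 4. Tnp2 stood at 11.17 ± 0.38 and 12.04 ± 0.36 in these 2 fractions (SD, n = 3 each). The markers summed to 16.07 in early, 16.12 to 16.20 in mid and 14.64 in late pachytene. In diplotene they summed to 15.52 to 15.61, and all 19 were at or above 4 in each of these later arrays. The Spo11-/- arrays held the same markers at 10.27, 9.69 and 9.78, with 2, 4 and 2 of 19 at or above 4 and Tnp2 at 2.65, 2.54 and 2.62. The Spo11-/- pre-leptotene array had all 12 macrophage and leukocyte markers at or above 4, summed to 14.57, against 7.12 to 9.70 in its wild-type counterparts. Wild-type spermatogonia also had 9 to 12 of the 12 leukocyte markers at or above 4, summed to 10.13 to 11.53, against 6.64 to 9.70 in the other wild-type arrays. The part of these cells' RNA in the results was not tested. Fits were repeated without spermatogonia arrays 1 and 2, whose spermatid markers summed highest (17.37 and 17.98), and without the Spo11-/- pre-leptotene array. Spermatogonia arrays 3 and 4, at 16.46 and 15.73, were kept in these fits. Spo11 itself read 4.30, 4.80 and 5.21 in the Spo11-/- fractions against 4.60 to 6.69 in wild-type spermatogonia and 7.42 to 8.95 in leptotene/zygotene cells.

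The sequences before the gene starts of the testis forms, and of Ldha, the somatic form that moved with them, are shown so that the stretches before the germ-cell genes can be compared. Each is the 150 bases before an annotated start, read in the direction of the gene, from RefSeq on GRCm38.p6; all 10 genes matched the promoter table, with 13 windows. Capitals mark matches, on either strand, to TGACGTCA (the cAMP response element), its core TGACG (part of that element), CAACNG (a MYB core), GGGCGG (the GC box), TATAAA (the TATA box), CCAAT (the CCAAT box) and GTTGCC (an RFX core); every TGACGTCA also holds TGACG.
Ldhc, chr7:46861113-46861262, plus strand: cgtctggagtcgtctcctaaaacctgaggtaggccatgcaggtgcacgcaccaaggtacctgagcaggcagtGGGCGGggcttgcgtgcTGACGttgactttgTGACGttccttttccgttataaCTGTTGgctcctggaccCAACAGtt
Ldha, chr7:46845654-46845803, plus strand: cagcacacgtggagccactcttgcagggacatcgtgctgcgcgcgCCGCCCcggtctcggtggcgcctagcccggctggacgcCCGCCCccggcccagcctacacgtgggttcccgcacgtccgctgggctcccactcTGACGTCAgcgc
Pgk2, chr17:40208610-40208759, minus strand: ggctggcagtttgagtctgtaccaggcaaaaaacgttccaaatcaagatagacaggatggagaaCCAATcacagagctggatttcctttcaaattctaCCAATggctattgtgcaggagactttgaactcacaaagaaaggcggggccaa
Gapdhs, chr7:30743682-30743831, minus strand: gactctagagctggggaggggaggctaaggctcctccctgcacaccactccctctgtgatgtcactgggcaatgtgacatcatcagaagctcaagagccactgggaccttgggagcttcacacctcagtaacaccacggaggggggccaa
Pdha2, chr3:141212356-141212505, minus strand: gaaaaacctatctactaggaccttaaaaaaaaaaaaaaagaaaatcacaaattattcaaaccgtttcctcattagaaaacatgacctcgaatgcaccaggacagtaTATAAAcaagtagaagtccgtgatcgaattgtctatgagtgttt
Cyct, chr2:76360454-76360603, minus strand: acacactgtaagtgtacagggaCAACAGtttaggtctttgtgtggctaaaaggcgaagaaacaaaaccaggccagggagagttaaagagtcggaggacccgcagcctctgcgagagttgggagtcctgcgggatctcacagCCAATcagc

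The 6 windows shared no motif among them all. Over all 32851 promoter windows of 300 bases, TGACGTCA was found in 1.79%, TGACG in 20.8%, CAACNG in 35.0%, GGGCGG in 35.7%, TATAAA in 13.6%, CCAAT in 37.4% and GTTGCC in 12.5%. Ldha held TGACGTCA at bases -12 to -5 from its start, and its neighbour Ldhc held TGACG at -61 and -47 with CAACNG at -25 and -8. Pgk2 and Cyct held CCAAT, which Pgk2 had at -86 and -52 and Cyct at -9. Pdha2 held TATAAA at -44. The Gapdhs stretch held none of the 7 motifs, its window having only TGACG at 39 after the start. Gapdhs has a second annotated start 4274 bases further along the gene, and Ldha and Ldhc also have 2 windows each. The windows of somatic forms not shown also held such matches. Cycs held TGACGTCA at -169 to -162, and CCAAT stood at -58 in Pgk1 and at -31 in Cycs. A match describes the letters only.

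Over the whole course, from spermatogonia to round spermatids, 5 of the 9 measured members rose and 3 fell. Those that rose were Ldha, Ldhc, Pgk2, Pdha2 and Cyct, and those that fell were the somatic Pgk1, Pdha1 and Cycs. Of 13087 genes tested, 65.4% passed, 30.2% upward and 35.3% downward, so most genes changed between these fractions. The median change was 2.63 over the 5 testis forms and -3.07 over the 4 somatic forms measured, against -0.16 over all genes; with Pdha1 at its bound the somatic median was -2.83.

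**Figure D1:**
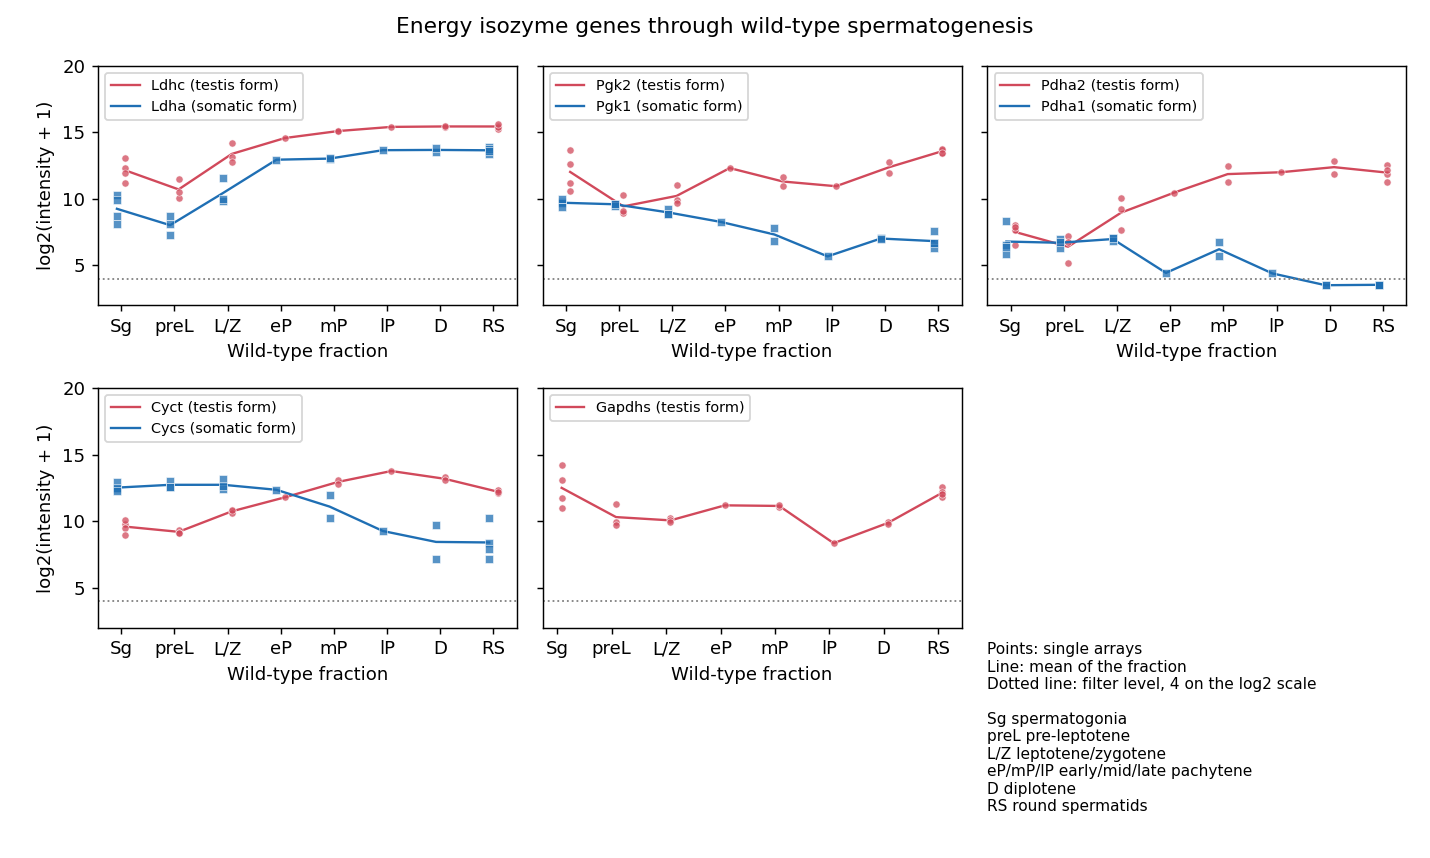
Level of each gene, log2(intensity + 1), in the 8 wild-type fractions in order of development; points are arrays, lines join fraction means, red is the testis form, blue the somatic form and the dotted line marks 4. Ldha runs with Ldhc, whereas Pgk1, Pdha1 and Cycs end lower, and Pgk2, Pdha2 and Cyct higher, in round spermatids than in spermatogonia; Gapdhs is at its lowest, 8.35, in late pachytene.

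Gapdhs (chromosome 7, 30729779 to 30744791) encodes the sperm form of glyceraldehyde-3-phosphate dehydrogenase, which makes the first high-energy phosphate intermediate of glycolysis. The wild-type spermatogonia arrays read 13.07, 14.21, 11.77 and 10.99, the pre-leptotene arrays 9.95, 11.26 and 9.73, and the leptotene/zygotene arrays 10.21, 10.07 and 9.92. Early pachytene read 11.20, mid-pachytene 11.11 and 11.19, late pachytene 8.35, diplotene 9.94 and 9.82, and round spermatids 12.55, 12.17, 11.86 and 12.03. Spermatogonia thus overlapped round spermatids, and every array from pre-leptotene to diplotene lay below all 4 round spermatid arrays.

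Gapdhs rose from diplotene to round spermatids by 2.27 ± 0.63 (SE; limma, adjusted p = 0.0135), the only member past the test at that step, where 24.4% of genes passed and 12.5% rose. Without diplotene array 1 its adjusted p was 0.0843 and without diplotene array 2 it was 0.0739. Between spermatogonia and round spermatids its change of -0.36 ± 0.51 missed the test (adjusted p = 0.537, 95% interval -1.45 to 0.74) and took the other sign, 0.77, without spermatogonia arrays 1 and 2. Those arrays were also the ones with the highest Gapdhs.

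Pgk1 (chromosome X, 106187100 to 106203699) and Pgk2 (chromosome 17, 40207018 to 40208609) encode phosphoglycerate kinase, which makes ATP at the next step. Pgk1 read 9.74, 9.66, 10.01 and 9.40 in spermatogonia, 9.64, 9.47 and 9.64 in pre-leptotene and 9.21, 8.86 and 8.87 in leptotene/zygotene arrays. It then read 8.25 in early, 7.82 and 6.81 in mid and 5.67 in late pachytene, 7.03 and 7.0 in diplotene, and 7.61, 6.64, 6.32 and 6.70 in round spermatids. In this probe set the late pachytene array was the lowest of all 20. No array from early pachytene on reached the lowest of the earlier ones. In the most variable of the 3 Pgk1 probe sets, round spermatid arrays 3 and 4 were lowest, at 2.12 and 2.10, against 5.14 in late pachytene. In the remaining one, round spermatid array 3 was lowest, at 4.32. Early pachytene, at 7.23, lay there above leptotene/zygotene arrays 2 and 3 (6.96 and 6.97).

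Pgk1 fell by 1.66 ± 0.35 on the log2 scale from leptotene/zygotene to mid-pachytene (limma, adjusted p = 0.00265). It fell by 2.88 ± 0.27 from spermatogonia to round spermatids (adjusted p = 7.73e-08). Read from its most variable probe set, the change over the whole course was -4.87, and the step into mid-pachytene missed the test at an adjusted p of 0.217. The same step missed it without mid-pachytene array 2 (adjusted p = 0.0798).

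Pgk2 read 12.64, 13.63, 11.18 and 10.61 in spermatogonia, 8.91, 10.30 and 9.07 in pre-leptotene and 9.93, 9.66 and 11.04 in leptotene/zygotene arrays. Later it read 12.31 in early, 10.95 and 11.64 in mid and 10.94 in late pachytene, 11.97 and 12.78 in diplotene, and 13.44, 13.65, 13.76 and 13.47 in round spermatids. Round spermatids were highest on average, but spermatogonia array 2 lay among them.

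Pgk2 fell by 2.59 ± 0.58 on the log2 scale from spermatogonia to pre-leptotene (limma, adjusted p = 0.0411), the only 1 of 9 members past the test there, against 1.7% of all genes and 1.64% downward. This call was lost without spermatogonia array 1 (adjusted p = 0.123) or 2 (0.0831) and without pre-leptotene array 1 (0.181) or 3 (0.203); with both spermatogonia arrays left out the change was -1.47 (adjusted p = 0.325). With the replicate number as a block it was -2.84 (adjusted p = 0.00989), and Gapdhs, -2.20 ± 0.56 without the block (adjusted p = 0.0576), passed too, at -2.47 (adjusted p = 0.00775). The round spermatid markers moved the same way, summing to 14.78 to 15.62 in pre-leptotene arrays.

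The rise of Pgk2 over the whole course was 1.57 ± 0.54 (limma, adjusted p = 0.0152), and the groups overlapped. It was 2.69 (adjusted p = 7.74e-05) without spermatogonia arrays 1 and 2, and it missed the test without array 3 (0.0540) or 4 (0.0624). Between pre-leptotene and diplotene no step of Pgk2 passed the test.

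Ldha (chromosome 7, 46842274 to 46855627) and Ldhc (chromosome 7, 46861263 to 46878147) encode the muscle-type and the sperm subunit of lactate dehydrogenase and are neighbours on the chromosome. Ldha read 8.69, 10.29, 8.09 and 9.91 in spermatogonia, 7.25, 8.69 and 8.11 in pre-leptotene and 9.80, 9.95 and 11.57 in leptotene/zygotene arrays. From early pachytene on it read 12.93, then 12.98 and 13.05 in mid and 13.65 in late pachytene, 13.54 and 13.80 in diplotene, and 13.37, 13.85, 13.75 and 13.59 in round spermatids. Every array from early pachytene on was above every earlier one, and late pachytene, diplotene and round spermatids overlapped.

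Ldhc read 12.34, 13.05, 11.20 and 11.94 in spermatogonia, 10.08, 11.50 and 10.52 in pre-leptotene and 13.11, 12.80 and 14.19 in leptotene/zygotene arrays. It read 14.56 in early, 15.09 and 15.09 in mid and 15.40 in late pachytene, 15.41 and 15.45 in diplotene, and 15.44, 15.27, 15.42 and 15.59 in round spermatids. Its order of fractions was that of Ldha except for the places of late pachytene and round spermatids, whose arrays overlapped in both genes. Over the 20 wild-type arrays, which share fractions, Pearson's r between the 2 genes was 0.98. Whether the Ldha probe set also binds Ldhc RNA was not tested.

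At the step from pre-leptotene to leptotene/zygotene, Ldha rose by 2.43 ± 0.54 (limma, adjusted p = 0.0259) and Ldhc by 2.67 ± 0.44 (adjusted p = 0.00901). They were 2 of 4 members that rose there, with Pdha2 and Cyct, against 3.11% of all genes past the test and 3.03% upward. Into mid-pachytene, Ldha rose by 2.57 ± 0.61 (adjusted p = 0.00494) and Ldhc by 1.72 ± 0.49 (adjusted p = 0.0149). Read from its most variable probe set, Ldhc missed the test at both steps (limma, adjusted p = 0.0831 and 0.0967). Its rise into mid-pachytene also missed the test without leptotene/zygotene array 2 (adjusted p = 0.0616). From mid-pachytene to round spermatids no step of either gene passed the test, with changes from diplotene to round spermatids of -0.03 (95% interval -1.25 to 1.19) for Ldha and -0.002 (-0.99 to 0.99) for Ldhc.

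Over the whole course Ldha rose by 4.39 ± 0.47 (limma, adjusted p = 3.12e-07), 21.0-fold, and Ldhc by 3.30 ± 0.38 (adjusted p = 7.90e-07), 9.83-fold. Ldha was thus the only somatic form measured that rose.

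Pdha1 (chromosome X, 160122219 to 160138430) and Pdha2 (chromosome 3, 141210004 to 141212355) encode the catalytic alpha subunit of pyruvate dehydrogenase. Pdha1 read 6.53, 5.86, 6.41 and 8.35 in spermatogonia, 6.98, 6.32 and 6.78 in pre-leptotene, 7.03, 6.82 and 7.07 in leptotene/zygotene, and 4.43 in early, 6.73 and 5.69 in mid and 4.39 in late pachytene arrays. Both diplotene arrays, 3.50 and 3.51, and all 4 round spermatid arrays, 3.53, 3.53, 3.55 and 3.52, lay below 4. The 2 mid-pachytene arrays lay above both the early and the late pachytene array, each of which is a single sample.

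Pdha1 fell from mid-pachytene to diplotene by at least 2.21 on the log2 scale, taking diplotene at 4 (limma, adjusted p = 0.00265; fitted change -2.70 ± 0.56). It was 1 of 2 members that fell at that step, with Cycs, where 21.5% of genes passed and 14.5% fell. Without mid-pachytene array 1 its adjusted p was 0.0509. From spermatogonia to round spermatids the drop was at least 2.79 (adjusted p = 1.39e-06; fitted change -3.25 ± 0.40).

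Pdha2 read 6.53, 8.03, 7.64 and 7.84 in spermatogonia, 5.17, 7.23 and 6.79 in pre-leptotene and 7.64, 9.22 and 10.03 in leptotene/zygotene arrays. It read 10.47 in early, 11.26 and 12.44 in mid and 11.99 in late pachytene, 11.88 and 12.87 in diplotene, and 11.27, 11.84, 12.55 and 12.19 in round spermatids. Every array from early pachytene on was above every earlier one, and mid-pachytene to round spermatid arrays overlapped.

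Pdha2 rose by 2.56 ± 0.63 into leptotene/zygotene (limma, adjusted p = 0.0371), by 2.89 ± 0.70 into mid-pachytene (adjusted p = 0.00604) and by 4.45 ± 0.55 over the whole course (adjusted p = 1.49e-06), 21.9-fold. The first of these rises kept its call in 5 of 10 alternatives and in 2 of 6 fits with 1 array left out. Among others, it missed the test with median centring (limma, adjusted p = 0.0793), no filter (0.0835) or a pseudocount of 16 (0.113). The leptotene/zygotene arrays spanned 7.64 to 10.03.

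Cycs (chromosome 6, 50562563 to 50566569) and Cyct (chromosome 2, 76353942 to 76360453) encode the somatic and the testis form of cytochrome c. Cycs read 12.92, 12.46, 12.49 and 12.24 in spermatogonia, 13.03, 12.59 and 12.60 in pre-leptotene, 13.19, 12.40 and 12.62 in leptotene/zygotene and 12.36 in early pachytene arrays. It then read 11.95 and 10.25 in mid and 9.27 in late pachytene, 9.75 and 7.14 in diplotene, and 10.23, 8.34, 7.89 and 7.17 in round spermatids. The early arrays lay close together, and replicates from mid-pachytene on differed by up to several units, with diplotene and round spermatids overlapping.

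Cycs fell by 2.65 ± 0.85 on the log2 scale from mid-pachytene to diplotene (limma, adjusted p = 0.0335). Over the whole course it fell by 4.12 ± 0.60 (adjusted p = 1.03e-05), 17.4-fold. The first of these was lost without mid-pachytene array 1 (-1.81, adjusted p = 0.297) or diplotene array 2 (-1.35, adjusted p = 0.394). Its change into mid-pachytene of -1.64 ± 0.77 missed the test (adjusted p = 0.115) and passed it with the replicate block, at -1.81 (adjusted p = 0.0129).

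Cyct read 9.76, 9.52, 8.98 and 10.13 in spermatogonia, 9.37, 9.11 and 9.14 in pre-leptotene and 10.73, 10.64 and 10.87 in leptotene/zygotene arrays. It read 11.80 in early, 13.10 and 12.82 in mid and 13.77 in late pachytene, 13.29 and 13.10 in diplotene, and 12.09, 12.28, 12.31 and 12.20 in round spermatids. Its highest array was late pachytene, and all round spermatid arrays were below all mid-pachytene, late pachytene and diplotene arrays.

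Cyct rose by 1.54 ± 0.25 into leptotene/zygotene (limma, adjusted p = 0.00901), by 2.21 ± 0.28 into mid-pachytene (adjusted p = 9.98e-05) and by 2.63 ± 0.22 over the whole course (adjusted p = 1.68e-08). From diplotene to round spermatids its change of -0.97 ± 0.26 had an adjusted p of 0.0121 but was below the fold minimum. With the replicate block that change was -1.02 (adjusted p = 0.00749), past the test.

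At the step into mid-pachytene, 4 members rose (Ldha, Ldhc, Pdha2 and Cyct) and Pgk1 fell, against 29.3% of all genes past the test, 14.2% upward and 15.2% downward. Without mid-pachytene array 2 only Cyct passed. At the step into leptotene/zygotene none of the 4 calls held without leptotene/zygotene array 3, the one with the highest Ldha, Ldhc and Pdha2 of its group, where the adjusted p of Cyct was 0.0501 and that of Ldhc 0.0539; only that of Cyct held without pre-leptotene array 1.

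**Figure D2:**
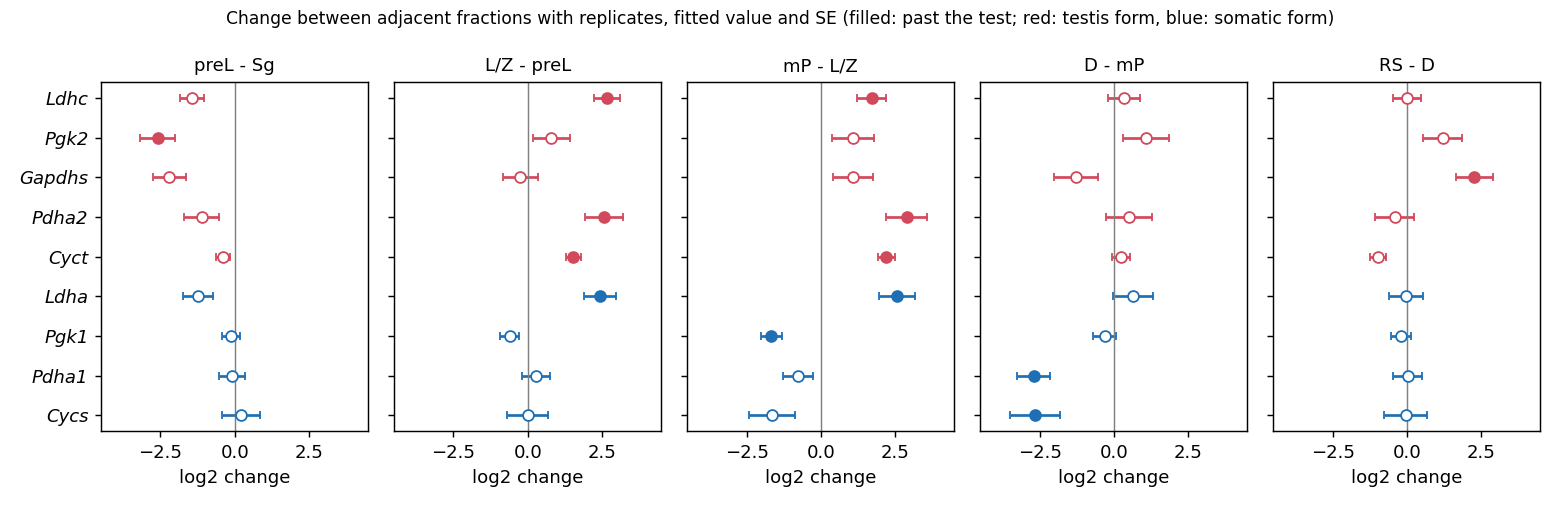
Fitted log2 change of each gene between adjacent replicated fractions (preL, pre-leptotene; Sg, spermatogonia; L/Z, leptotene/zygotene; mP, mid-pachytene; D, diplotene; RS, round spermatids), with bars of 1 SE; filled points passed the test. Ldha, Ldhc, Pdha2 and Cyct rise at L/Z - preL and at mP - L/Z, and Pdha1 and Cycs fall at D - mP.

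Both X-linked members were set beside the other X-linked genes. Into mid-pachytene, 192 of 419 X-linked genes fell, 45.8%, against 14.2% of autosomal genes, and their median change was -1.37 against -0.05. Pgk1, with -1.66, was near that X-linked median, and Pdha1, with -0.77 ± 0.51 (95% interval -1.85 to 0.32; limma, adjusted p = 0.268), did not pass the test. From mid-pachytene to diplotene, the step at which Pdha1 fell, 174 of 419 X-linked genes fell, 41.5%, against 13.6% of autosomal genes, with a median change of -1.02. From diplotene to round spermatids, 129 of 419 X-linked genes rose, 30.8%, against 11.8% of autosomal genes. Pgk1 (-0.20, 95% interval -0.90 to 0.51) and Pdha1, below 4 in both fractions, were among the X-linked genes that did not pass there. The most variable Pgk1 probe set read 6.23 and 5.07 in diplotene and 6.62, 5.04, 2.12 and 2.10 in round spermatids.

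Within each array the log2 value of the testis form minus that of its somatic partner shows whether the 2 forms changed unequally, but not which is the more abundant. The difference for cytochrome c, Cyct minus Cycs, was -3.16, -2.94, -3.51 and -2.11 in the spermatogonia arrays and 1.86, 3.95, 4.43 and 5.03 in round spermatids, a shift of 6.74. The Pdha2 minus Pdha1 difference was 0.73 ± 1.21 (SD, n = 4) in spermatogonia and, with Pdha1 below 4 and taken at 4, at least 7.96 in round spermatids, a shift of at least 7.24. For Pgk2 minus Pgk1 it went from 2.31 ± 1.37 to 6.76 ± 0.68 (n = 4 each), a shift of 4.45.

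In these 3 pairs the arrays of the groups did not overlap. Taken singly, 69.6% of the 13087 genes tested did not overlap between these groups either, so separation is common here. Each of the 3 pair shifts had a two-sided exact permutation p of 0.0286, the smallest that 4 against 4 arrays allow. After Benjamini-Hochberg adjustment over the 4 pairs tested it was 0.0381. With arrays paired by replicate number, an exact sign-flip permutation test gave p = 0.125 for each of the 3, the smallest that 4 pairs allow, so the call is lost when paired. Without spermatogonia arrays 1 and 2 the shift was 5.57 for Pgk and 6.62 for cytochrome c, with an exact permutation p of 0.133, again the smallest possible. Ldhc minus Ldha moved the other way, from 2.89 ± 0.68 to 1.79 ± 0.30 (SD, n = 4 each), a shift of -1.10 with an exact permutation p of 0.0571 (two-sided, adjusted 0.0571). It passed with quantile normalization, at -1.25.

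**Figure D3:**
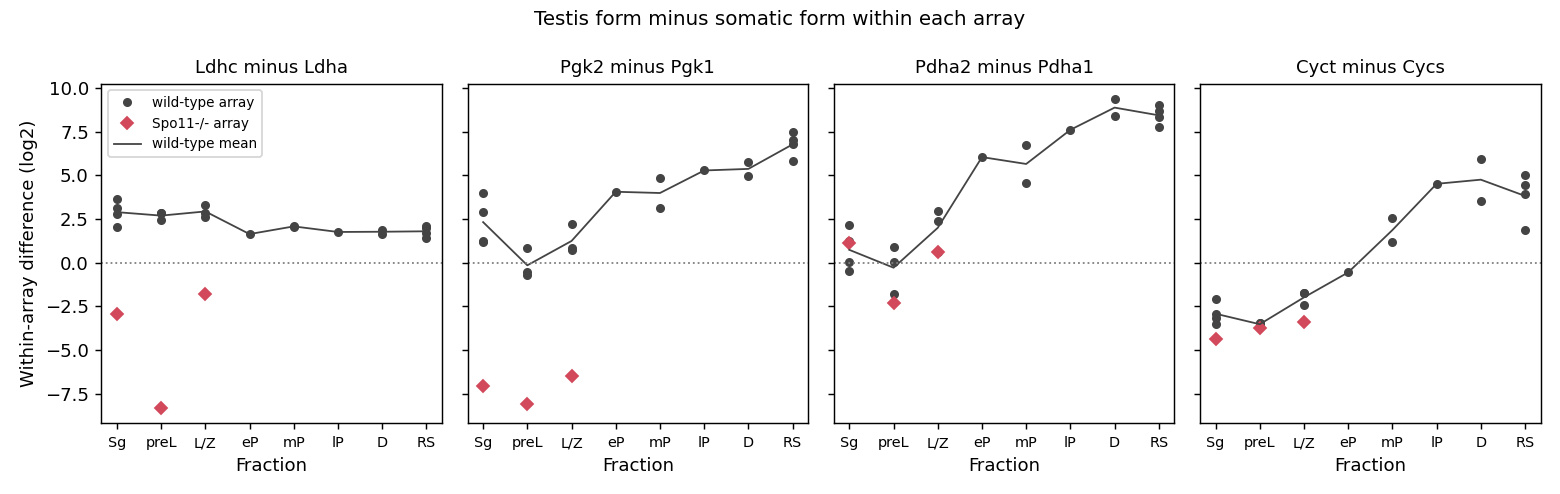
Testis form minus somatic form in log2 within each array, by fraction (abbreviations as Sg spermatogonia to RS round spermatids); black points are wild-type arrays joined through their means and red diamonds are the Spo11-/- arrays. The Pgk, Pdha and cytochrome c pairs climb through prophase, while Ldhc minus Ldha stays between 1.42 and 3.64 in all wild-type arrays. Differences with a value below 4 (Pdha in diplotene and round spermatids, Ldh and Pgk in Spo11-/-) are drawn as read and have no exact size.

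In Spo11-/- fractions the germ-cell forms divided into those at the bottom of the scale and those near wild-type levels. Ldhc read 2.95, 2.70 and 3.03 in Spo11-/- spermatogonia, pre-leptotene and leptotene/zygotene cells, against 10.08 at the lowest, 12.14 at the median and 14.19 at the highest of 10 wild-type arrays. Pgk2 read 2.90, 3.10 and 3.17, against 8.91, 10.45 and 13.63 in the same order. Gapdhs read 2.90, 1.85 and 2.22, against 9.73, 10.60 and 14.21.

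All 3 genes were below 4 in every Spo11-/- array and far above it in every wild-type array. Taking the Spo11-/- arrays at 4, Ldhc was at least 269-fold below the mean of the 10 wild-type arrays, Pgk2 at least 104-fold and Gapdhs at least 139-fold. Matched by fraction, the smallest bounds were -6.70 for Ldhc and -5.43 for Pgk2 on the log2 scale, both in pre-leptotene cells. For Gapdhs the smallest was -6.07, in leptotene/zygotene cells. The fitted shifts over fractions were -9.18 ± 0.48 for Ldhc (limma, adjusted p = 7.94e-07), -7.53 ± 0.65 for Pgk2 (3.05e-05) and -8.66 ± 0.58 for Gapdhs (6.42e-06). These were 3 of 9 members past the test, against 11.7% of the 11980 genes tested, 10% downward. Without wild-type spermatogonia arrays 1 and 2 the shifts were -9.00, -7.09 and -8.26, each past the test. The round spermatid markers, Tnp2 among them, were likewise near the bottom of the scale in the Spo11-/- arrays, and their part in these shifts was not tested. The wild-type arrays kept without spermatogonia arrays 1 and 2 still had these markers summing to 14.78 to 16.46. That fit therefore cannot set them aside.

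Pdha2 read 7.01, 6.99 and 7.23 in the Spo11-/- arrays, against 5.17, 7.64 and 10.03 at the lowest, median and highest of the wild type. Cyct read 8.79, 9.22 and 9.87, against 8.98, 9.64 and 10.87. Only in leptotene/zygotene cells did the Spo11-/- array of Pdha2 lie below all its wild-type counterparts, while Cyct lay below them there and in spermatogonia.

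The fitted shift was -0.55 ± 0.58 for Pdha2 (limma, adjusted p = 0.555, 95% interval -1.81 to 0.71) and -0.56 ± 0.24 for Cyct (adjusted p = 0.132, interval -1.08 to -0.04), and neither passed. Between the Spo11-/- spermatogonia and leptotene/zygotene arrays, Pdha2 differed by less than the spread of wild-type replicates.

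Among somatic forms, Ldha read 5.88, 11.02 and 4.85 in the Spo11-/- arrays, against 7.25, 9.25 and 11.57 at the lowest, median and highest of the wild type. The pre-leptotene array, the one with the leukocyte markers, lay above all its wild-type counterparts, and the other 2 below theirs. In that array Ldhc read 2.70. Over the 3 fractions the shift of Ldha was -2.01 ± 1.16 (limma, adjusted p = 0.263, 95% interval -4.54 to 0.52), and without the pre-leptotene array it was -4.44 (adjusted p = 0.00289), past the test.

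Pgk1 read 9.98, 11.21 and 9.66, against 8.86, 9.56 and 10.01, and Pdha1 5.87, 9.31 and 6.61, against 5.86, 6.80 and 8.35. Both were highest in the same pre-leptotene array. Cycs read 13.18, 12.96 and 13.27, against 12.24, 12.59 and 13.19 and the wild-type range was narrower than that of any other member.

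The shift of Pgk1 was 0.85 ± 0.23 (limma, adjusted p = 0.0269), below the fold minimum. It was 1.06 with median centring and 1.15 without the Spo11-/- spermatogonia array, both past the test, and 0.47 (adjusted p = 0.168) without the pre-leptotene array. Pdha1, at 0.42 ± 0.60 (adjusted p = 0.672, 95% interval -0.89 to 1.72), turned to -0.65 without it. Cycs, at 0.47 ± 0.21 (adjusted p = 0.150, interval 0.01 to 0.93), did not pass either.

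**Figure D4:**
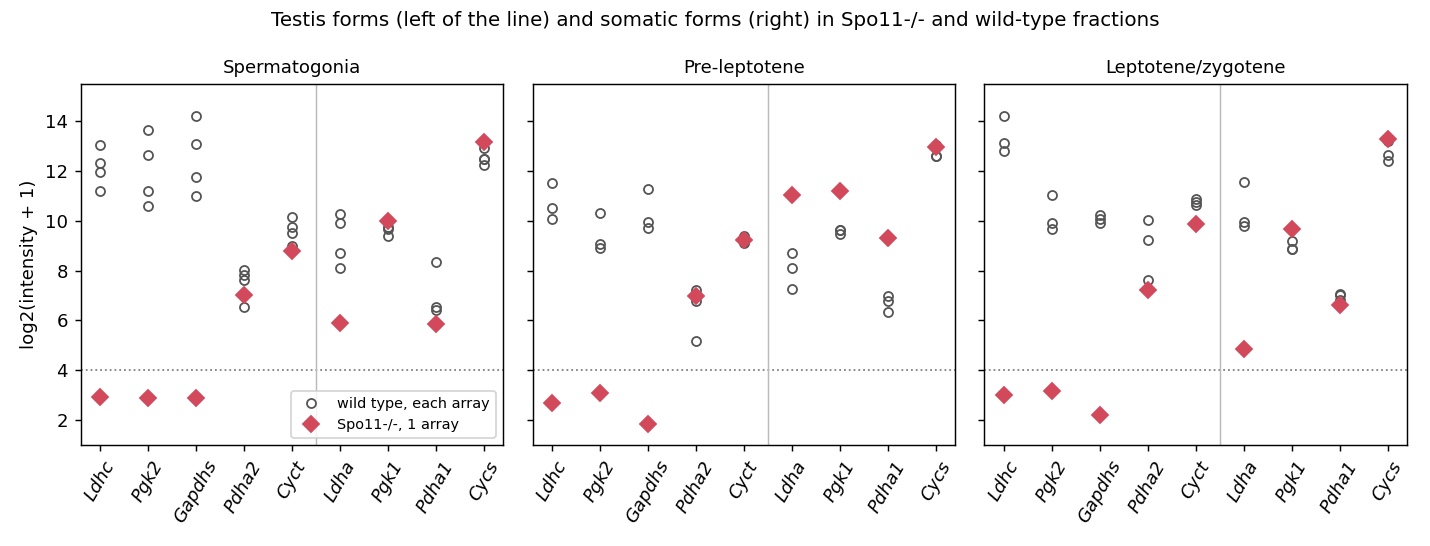
Level of the 9 measured genes, log2(intensity + 1), in each wild-type array (open circles) and the single Spo11-/- array (red diamonds) of 3 fractions; testis forms stand left of the grey line and the dotted line marks 4. Ldhc, Pgk2 and Gapdhs lie below 4 in all 3 Spo11-/- arrays, and Ldha, Pgk1 and Pdha1 lie above the wild type in the pre-leptotene array.

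Whether the Spo11-/- shift differed between leptotene/zygotene cells and spermatogonia was tested with an interaction term. With 1 Spo11-/- array per fraction, its spread came from the wild-type arrays alone. A lone Spo11-/- array was assumed to vary like them. In limma 0 of 9 members and 0 of 11980 genes passed, with 0 members and 403 genes at an unadjusted p below 0.05. For Pdha2 the difference of shifts was -1.23 (95% interval -4.26 to 1.80) and for Ldha -2.23 (-5.14 to 0.69), so the intervals were wide.

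Other enzymes of the same pathways were read from lists. Of 14 glycolytic enzymes tested, 5 rose and 4 fell from spermatogonia to round spermatids, a share near the 65.4% of all genes that passed. The muscle phosphofructokinase Pfkm rose by 5.09 ± 0.45 and the platelet form Pfkp by 5.62 ± 0.53, whereas the aldolase Aldoc fell by 4.08 ± 0.67 and hexokinase Hk2 by 3.98 ± 0.60. Their median change was 0.34. At the step into mid-pachytene 5 rose, among them Pgam2 (phosphoglycerate mutase, 2.47 ± 0.72), Eno3 (enolase, 2.45 ± 0.44) and Tpi1 (triose phosphate isomerase, 2.24 ± 0.67), and 1 fell, where 14.2% of all genes rose and 15.2% fell.

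Of 6 germ-cell enzymes of glycolysis and glycerol use, 5 rose over the whole course, where 30.2% of all genes rose, and 0 fell in limma. Those named by the rule were Gk2 (a glycerol kinase, 5.05 ± 0.67), Ldhal6b (a lactate dehydrogenase homologue, 4.89 ± 0.59), Eno4 (an enolase of sperm, 3.49 ± 0.20) and Bpgm (bisphosphoglycerate mutase, 1.84 ± 0.22). The list's median change was 2.66, against -0.16 over all genes.

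Among 12 genes of the pyruvate dehydrogenase complex and its regulators, 2 rose and 4 fell over the whole course, a smaller share than the 65.4% of all genes. Dlat, the complex's acetyltransferase subunit, rose by 2.55 ± 0.27 and Pdk2, a kinase that inhibits the complex, by 3.40 ± 0.41, while Pdk1, another such kinase, fell by 2.37 ± 0.61 and Pdpr, a regulatory subunit of its phosphatase, by 3.13 ± 0.31. In the citric acid cycle 10 of 17 genes fell and 4 rose, with a median change of -1.55, where 35.3% of all genes fell. Malate dehydrogenase Mdh2 fell by 4.53 ± 0.33, fumarase Fh1 by 3.22 ± 0.33 and the isocitrate dehydrogenase subunit Idh3g by 4.83 ± 0.64.

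Of 10 partners of cytochrome c, 7 fell and 2 rose over the whole course, where 35.3% of all genes fell and 30.2% rose. Their median change was -3.38, against -0.16 over all genes. Hccs, which attaches heme to cytochrome c, fell by at least 7.27, taking round spermatids at 4 (fitted change -8.12 ± 0.45), Cyc1, a subunit of respiratory complex III, by 4.25 ± 0.26, and Apaf1, which cytochrome c binds in apoptosis, by 4.08 ± 0.29. The risers were Cox6b2 and Cox8c, testis forms of cytochrome c oxidase subunits; Cox8c rose by 4.89 ± 0.46.

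Of 8 transporters of glucose and lactate, 3 rose and 3 fell over the whole course, a share near the 65.4% of all genes that passed (30.2% upward, 35.3% downward). Slc2a3, a glucose transporter, rose by 3.95 ± 0.54 and Slc16a7, a lactate and pyruvate transporter, by 4.14 ± 0.51. The related Slc2a1 and Slc16a1 fell by 4.33 ± 0.74 and 4.36 ± 0.32. All of these changes passed the limma test. Without spermatogonia arrays 1 and 2, 6 glycolytic enzymes rose and 3 fell (Pkm was lost and Hk1 gained), all 6 germ-cell enzymes rose and 11 citric acid cycle genes fell, and the counts of the other 3 lists were as before.

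In the Spo11-/- arrays 4 of 12 glycolytic and 4 of 6 germ-cell enzymes fell, as did 2 of 8 transporters and 2 of 10 cytochrome c partners, while 1 of 11 pyruvate dehydrogenase genes, Dld, rose. Over all genes 10% fell and 1.63% rose; the counts for transporters and cytochrome c partners are 2 genes each. None of 17 citric acid cycle genes passed in limma. Without the pre-leptotene array 7 glycolytic enzymes fell and Hccs rose. Without wild-type spermatogonia arrays 1 and 2, 4 glycolytic enzymes fell, with Pkm lost and Tpi1 gained. The calls of Dld and Cox6b2 were lost under both. Pgam2 and Ldhal6b were below 4 in all 3 Spo11-/- arrays, so their shifts are bounds, with those arrays taken at 4. Against the mean of the 10 wild-type arrays they were -6.88 or lower for Pgam2 and -5.55 or lower for Ldhal6b, on the log2 scale. These 2 bounds are not matched by fraction. Slc2a3 had a shift of -5.11 ± 0.79 and read between 5.43 and 8.57 in the Spo11-/- arrays, against 9.79 to 14.55 in the wild type.

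The genes whose pattern over the 20 wild-type arrays was most like each member's were named by Pearson's r among 13087 genes, as a description of arrays that share fractions. Nearest to Ldha was Fbp1, fructose-1,6-bisphosphatase, with r = 0.995, and nearest to Ldhc was Cmtm2a, with r = 0.99. For Pgk2 it was Plcz1, the sperm phospholipase that activates the egg (0.983), for Gapdhs Smcp, a protein of the sperm mitochondrial capsule (0.985), for Pdha2 Acsl6, an acyl-CoA synthetase (0.991), and for Cyct Fam181a (0.984). The somatic forms lay nearest to Mthfd1, a folate enzyme, for Pgk1 (0.981), to Hivep2 for Pdha1 (0.978) and to Cox6b1, a somatic subunit of cytochrome c oxidase, for Cycs (0.991). Among the members themselves r was 0.97 between Ldha and Pdha2, 0.65 between Pgk2 and Gapdhs, and -0.26 between Gapdhs and Cyct.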

How the data were processed

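The deposited values are intensity per probe set, summarised by the authors with GCRMA, per the submitters' processing notes; the version is not given in the sources used here. Their range, 1.48 to 107451, was read as linear, and log2(value + 1) was analysed. Between 44.2% and 47.3% of probe sets per array reached 4 on that scale, and median intensity ran from 10.63 to 12.56. The number of arrays limits the precision. Of 45037 probe sets, 34945 had 1 gene symbol, 932 several, and 9160 were not listed in the platform annotation; names and positions came from RefSeq on GRCm38.p6 for 34741 of them. Genes were tested where at least 2 arrays of the fit reached 4.

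Fraction means were fitted with limma 3.58.1 in R 4.3.3 over the 20 wild-type arrays. The Spo11-/- shift was fitted over 13 arrays, with fraction and genotype as additive terms, taking the 3 Spo11-/- arrays as independent. Early and late pachytene, with 1 array each, were described without a test. The labels call replicates biological; p-values measure the spread between these arrays. Pair differences were tested with two-sided exact permutation tests in scipy 1.17.1, with Benjamini-Hochberg adjustment over 4 pairs, since Gapdh had no value. Intervals are 95% confidence intervals. The limma fits were tested on simulated data.

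To see whether replicate numbers pair arrays, each array's departure from its fraction mean was correlated with that of the array of the same number. For pre-leptotene against spermatogonia r was 0.53, 0.65 and 0.23, and for round spermatids against spermatogonia 0.40, 0.12, 0.10 and 0.16. Both were therefore also tested paired by number, although the labels do not say what a number shares; the main tests are unpaired. Between pre-leptotene and leptotene/zygotene 1 of 3 was 0.08, and the other steps have 2 pairs. There r was 0.56 and 0.29 into mid-pachytene, 0.63 and 0.63 from mid-pachytene to diplotene, and 0.59 and 0.07 from diplotene to round spermatids. The replicate block was run as an alternative for these steps too.

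The members, the pathway and marker lists and the alternatives were chosen with earlier results of these data known. From each pathway list the rule named up to 4 genes with the largest change past the test in round spermatids against spermatogonia and in mid-pachytene against leptotene/zygotene; the genes named in the Spo11-/- comparison were chosen after their values were seen. For likeness the rule took the 3 highest correlations per member, and the highest is printed. Marker lists for Sertoli, Leydig, peritubular, endothelial and red blood cells, spermatogonia and spermatocytes were also read. In the Spo11-/- pre-leptotene array, Sertoli markers summed to 13.51 (wild type 11.23 to 12.48) and peritubular and stromal markers to 12.09 (9.43 to 10.99); in the Spo11-/- leptotene/zygotene array Sertoli markers summed to 13.47 (wild type 12.35 to 12.86). Wild-type spermatogonia had the widest peritubular and stromal range, 10.23 to 14.02. The Leydig, endothelial and red blood cell lists reached at most 8.25, 8.13 and 5.63 on any array.
Spermatogonial markers ran from 13.19 to 15.36 and spermatocyte markers from 14.07 to 17.05.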

Additional observations from a re-analysis of the deposited data

How the results depend on the processing

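The 8 members past the test between spermatogonia and round spermatids stayed 8 under 11 alternatives and 7 to 8 with 1 array left out. The 3 of the Spo11-/- comparison were 3 to 4, and the interaction kept 0 members. The adjacent steps moved. From spermatogonia to pre-leptotene the count of 1 became 0 with the mean of all probe sets, no filter, a pseudocount of 16, quantile normalization, median centring or a fit on both fractions alone, and 0 without spermatogonia arrays 1 and 2 (an alternative added after seeing the data); with 1 array left out it was 0 to 3. From pre-leptotene to leptotene/zygotene 4 became 2 with no filter or a pseudocount of 16 and 0 in a fit on both fractions alone (0 to 4 with 1 array left out). Into mid-pachytene 5 became 3 with the most variable probe set (1 to 5 left out). From mid-pachytene to diplotene 2 became 1 with no filter, a pseudocount of 16 or a fit on both fractions alone (0 to 2 left out). From diplotene to round spermatids 1 became 2 in a fit on both fractions alone (0 to 2 left out). The cause was not tested, except that a fit on fewer arrays has fewer residual degrees of freedom.

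With the replicate number as a block the counts were 2 from spermatogonia to pre-leptotene and 2 from diplotene to round spermatids. For the pairs, an exact sign-flip permutation test of same-numbered arrays (replicate block) gave the same shifts, 4.45, 7.70 (with Pdha1 as read) and 6.74, but cannot go below p = 0.125. With 1 array left out the shifts ran from 4.07 to 5.0 for Pgk, 7.29 to 8.18 for Pdha, 6.34 to 7.40 for cytochrome c and -1.38 to -0.84 for Ldh, in designs too small to pass; without spermatogonia arrays 1 and 2 (added after seeing the data) they were 5.57, 8.06 and 6.62 for the first 3, in a design too small too. The Ldh shift passed at -1.19 with the most variable probe set, -1.14 with the mean of all and -1.25 with quantile normalization. Signs turned for Gapdhs between spermatogonia and round spermatids (0.039 with median centring, 0.77 without spermatogonia arrays 1 and 2, and -0.86 to 0.21 with 1 array left out) and in Spo11-/- for Pdha1 (-0.65 to 1.12 with 1 array left out, lowest without the pre-leptotene array) and Pdha2 (-1.10 to 0.026, highest without the leptotene/zygotene array). Over all genes, the 223 calls from spermatogonia to pre-leptotene ranged from 0 to 627 and the 407 of the next step from 0 to 631; 3839 into mid-pachytene became 1466 without mid-pachytene array 2, 2812 at diplotene 1108 in a fit on both fractions alone, 3199 into round spermatids 1690 without diplotene array 1, 1398 in Spo11-/- 711 with a pseudocount of 16, and 0 for the interaction 49 with no filter. Of 502 single-gene values under the other alternatives, 470 kept direction and call. They cover changes at least as large as their SE, all measured members in the Spo11-/- comparison, and Gapdhs over the whole course. Other small changes were left out, and a gene that missed the test both times counts as kept. The interaction was not run without the Spo11-/- spermatogonia or leptotene/zygotene array, since it cannot be estimated then.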
